A study of Mus musculus with 9 samples.

Results

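The genes described here are 8 transcripts that are widely used as markers of injured kidney tubule: Havcr1, Lcn2, Vcam1, Spp1, Krt8, Krt18, Sox9 and Cd44. They were taken by name from the 32427 genes of the count matrices, and all 8 were present in every library. Droplet-based single-cell RNA-seq was performed on kidney tissue of 9 male C57BL/6 mice, 6 weeks old on arrival and given 1 week to adapt, with 3 mice per group. Control mice received saline by intraperitoneal injection. AKI-CKD mice received intraperitoneal cisplatin at 8 mg/kg once a week for 4 weeks, a model in which acute kidney injury passes into chronic kidney disease. AKI-CKD + EGT mice received the same cisplatin and also EGT (ergothioneine, a diet-derived thiol) at 0.5 mg/mL in drinking water, from 3 days before the first injection until the end. All kidneys were taken after 8 weeks, so the comparisons are made well after the last dose of cisplatin and not at the peak of acute injury. A library was made from part of the kidney tissue of each mouse, and the mouse was the replicate throughout.

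In a healthy kidney, cells of the proximal tubule reabsorb most of what the glomerulus filters, and they hold very little message for most of these 8 genes. When the tubule is damaged, for instance by cisplatin that is taken up by proximal cells, surviving cells lose transport functions and switch on a repair programme. Havcr1 encodes KIM-1, a surface receptor that clears dying cells. Lcn2 encodes NGAL, a secreted protein that binds bacterial iron carriers. Vcam1 is an adhesion receptor for leukocytes that marks tubule cells with incomplete repair, Spp1 encodes the secreted phosphoprotein osteopontin, and Cd44 is a surface receptor for hyaluronan and osteopontin. Krt8 and Krt18 encode a pair of keratins that assemble with each other into the intermediate filaments of simple epithelia, and Sox9 is a transcription factor of nephron development and tubule repair.

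The 9 matrices held between 70106161 and 101525691 UMIs (unique molecular identifiers, the counted molecules) each. Of 216680 barcodes, 196925 were kept as cells, with a median of 2714 UMIs. Cells were clustered without using the 8 genes and were named "X-like" from lists of marker genes. PT-like cells (proximal tubule) were the largest class with 152522 cells, or 77.5% of those kept. The classes used below are DCT-like (distal convoluted tubule, 12137 cells), LOH-like (thick ascending limb of the loop of Henle, 7244), endothelial-like (3695), PC-like (principal cells of the collecting duct, 3001), macrophage-like (2864), cycling (1980), IC-like (intercalated cells of the collecting duct, 1738), thin limb-like (1306), stromal-like (1032), T-like (954), B-like (788) and podocyte-like (629). Another 7035 cells stayed unnamed, most of them in a cluster led by haemoglobin genes to which Control mouse 3 gave the most cells. The libraries differed in quality, since mitochondrial UMIs made up between 1.55% (Control mouse 3) and 6.39% (AKI-CKD + EGT mouse 3) of the UMIs in kept cells, and 27.7% of the barcodes of AKI-CKD + EGT mouse 3 were over the mitochondrial limit. Levels are given in CPM, the UMIs of the gene per 1000000 UMIs of the cell type in a mouse (without TMM, edgeR's scaling of library sizes, unless stated), and ± marks the SD over mice.

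The 8 genes fell into 2 detected at once in a large share of cells and 6 that were rare. Spp1 had 313987 UMIs and was found in 48.8% of the kept cells, and Krt8 had 89492 UMIs in 24.6% of the cells. Krt18 followed with 9219 UMIs in 2.62% of the cells. The remaining genes were near the limit of detection in the kidney as a whole: Lcn2 had 1009 UMIs in 572 cells, Vcam1 993 in 532 cells, Cd44 965 in 637 cells, Sox9 767 in 633 cells and Havcr1 357 in 215 cells. For these 5 genes a value in a mouse rests on few molecules, and a difference between groups has to be large to be seen.

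Promoter sequence was matched for 6 of the 8 genes in RefSeq's table (build GRCm38.p6, while the matrices were made on GRCm39) and is shown for the 3 genes detected most. Each run is the 250 bases upstream of a start site, written 5′ to 3′ on the gene's strand, and capitals mark TATAAA, the letters of a TATA box. Spp1 lies on the plus strand (chr5:104434861-104435110), Krt8 on the minus strand (chr15:102004343-102004592) and Krt18 on the plus strand (chr15:102027966-102028215). The keratin pair is shown because both genes moved together over the mice (below) and because their start sites lie 23.9 kb apart on chromosome 15, on opposite strands.
Spp1: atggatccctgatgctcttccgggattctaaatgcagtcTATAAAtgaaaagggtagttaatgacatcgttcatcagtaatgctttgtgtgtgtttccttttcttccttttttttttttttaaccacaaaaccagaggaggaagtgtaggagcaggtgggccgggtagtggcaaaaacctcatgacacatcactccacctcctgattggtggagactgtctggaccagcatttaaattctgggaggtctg
Krt8: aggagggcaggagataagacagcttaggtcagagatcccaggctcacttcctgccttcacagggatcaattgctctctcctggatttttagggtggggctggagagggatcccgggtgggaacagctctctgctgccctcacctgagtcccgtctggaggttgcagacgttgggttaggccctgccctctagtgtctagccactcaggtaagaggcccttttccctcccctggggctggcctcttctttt
Krt18: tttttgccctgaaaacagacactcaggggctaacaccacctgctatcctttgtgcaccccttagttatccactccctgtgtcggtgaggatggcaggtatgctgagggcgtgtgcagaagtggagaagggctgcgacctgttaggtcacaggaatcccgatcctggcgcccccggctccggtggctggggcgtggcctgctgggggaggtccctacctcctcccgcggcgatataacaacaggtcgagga
On both strands, TATAAA was present in the Spp1 window only among the windows of the 6 genes, 211 bases upstream of the start, and in 12.4% of all 32851 promoter windows of the same length. GGGCGG, a GC box, was present in the Lcn2 window only, and in 32.7% of all windows. TGANTCA (the AP-1 motif), GGAATG (TEAD) and TTCNNNGAA (STAT) were found in none of the 6 genes' windows and in 6.75%, 12.6% and 7.02% of all windows. A match describes letters and is not a measured site.

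Where each gene was found depended first on cell type. Spp1, the secreted member with the highest count, was highest in cells of the collecting duct and the thin limb, with 1744 ± 505 CPM (n = 9 mice) in PC-like cells, 1581 ± 636 in thin limb-like and 1434 ± 471 in IC-like cells. It stood at 985 ± 331 in LOH-like and 973 ± 297 in DCT-like cells and at 367 ± 136 in PT-like cells, in 26.3% of PT-like cells once each cell was thinned to 1000 UMIs. Since PT-like cells are so many, they still held 67.7% of all Spp1 UMIs. No pair of neighbours in this order of 13 types was separated beyond the range of the mice.

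Spp1 was also counted in cells outside the tubule. T-like cells had 261 ± 63.4 CPM, endothelial-like cells 245 ± 51.8 and B-like cells 295 ± 115, and after thinning 15.6% of T-like cells had a Spp1 UMI (median depths 2322.5 UMIs per T-like and 2891 per PT-like cell). In T-like, B-like, macrophage-like and endothelial-like cells pooled (below, cells outside the tubule), the level lay between 192 and 380 CPM in a mouse, or 59.9% to 96.8% of the PT-like level of the same mouse. For Krt8 this percentage was 35.0% to 76.3%. Macrophages and T cells can express Spp1 themselves, and how much of these values is RNA from outside the cell was not tested.

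Lcn2, the other secreted member, was highest in principal cells of the collecting duct. PC-like cells held 62.8% of its UMIs (634 molecules) at 64.7 ± 30.6 CPM, LOH-like cells held 12.3% at 6.87 ± 8.17, and PT-like cells were at 0.212 ± 0.0990. IC-like cells, the other class of the collecting duct, held 1.09%, from 5 of 1738 cells. Levels of PC-like cells overlapped with those of the next type, thin limb-like cells at 8.18 ± 15.5, only through AKI-CKD mouse 2, where thin limb-like cells stood at 46.6. No Lcn2 UMI was found in 788 B-like and 629 podocyte-like cells, which allows levels of up to 1.22 and 1.52 CPM from a floor of 3 counts (counting error only).

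The 3 surface receptors were each led by a different kind of cell. Havcr1 had 49.0% of its UMIs in PT-like cells, but at only 0.289 ± 0.123 CPM, in 144 of 152522 cells. Its level was highest in thin limb-like cells, at 21.7 ± 16.4, where 24 cells held 108 of the 357 molecules. Vcam1 was led by endothelial-like cells, with 60.9% of its UMIs and 45.8 ± 13.9 CPM, ahead of macrophage-like cells at 14.99 ± 8.82 and thin limb-like cells at 13.9 ± 12.1. PT-like cells, at 0.178 ± 0.0723, held 10.3% of its UMIs. Cd44 was a leukocyte gene in these kidneys, with 63.7 ± 11.4 in macrophage-like and 52.2 ± 10.01 in T-like cells, apart from B-like cells at 13.8 ± 4.05 and from PT-like cells at 0.137 ± 0.0798. It was not found in IC-like or cycling cells, which allows up to 0.432 and 0.372 CPM.

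The keratins and Sox9 marked segments of the nephron. Krt18 stood at 264 ± 101 in PC-like, 241 ± 84.0 in IC-like and 141 ± 85.3 in thin limb-like cells, all 3 ranges apart from that of DCT-like cells at 38.5 ± 6.62, and PT-like cells were the lowest of the 13 types at 4.07 ± 3.67. Krt8 had the same leading types, with 354 ± 134 in PC-like, 336 ± 154 in IC-like and 284 ± 118 in thin limb-like cells, but fell off less, to 115 ± 35.8 in PT-like and 61.9 ± 42.8 in T-like cells. Sox9 was highest in DCT-like cells at 11.7 ± 4.76, which held 49.4% of its UMIs, followed by thin limb-like cells at 7.49 ± 2.99, while PT-like cells were at 0.358 ± 0.246.

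**Figure D1:**
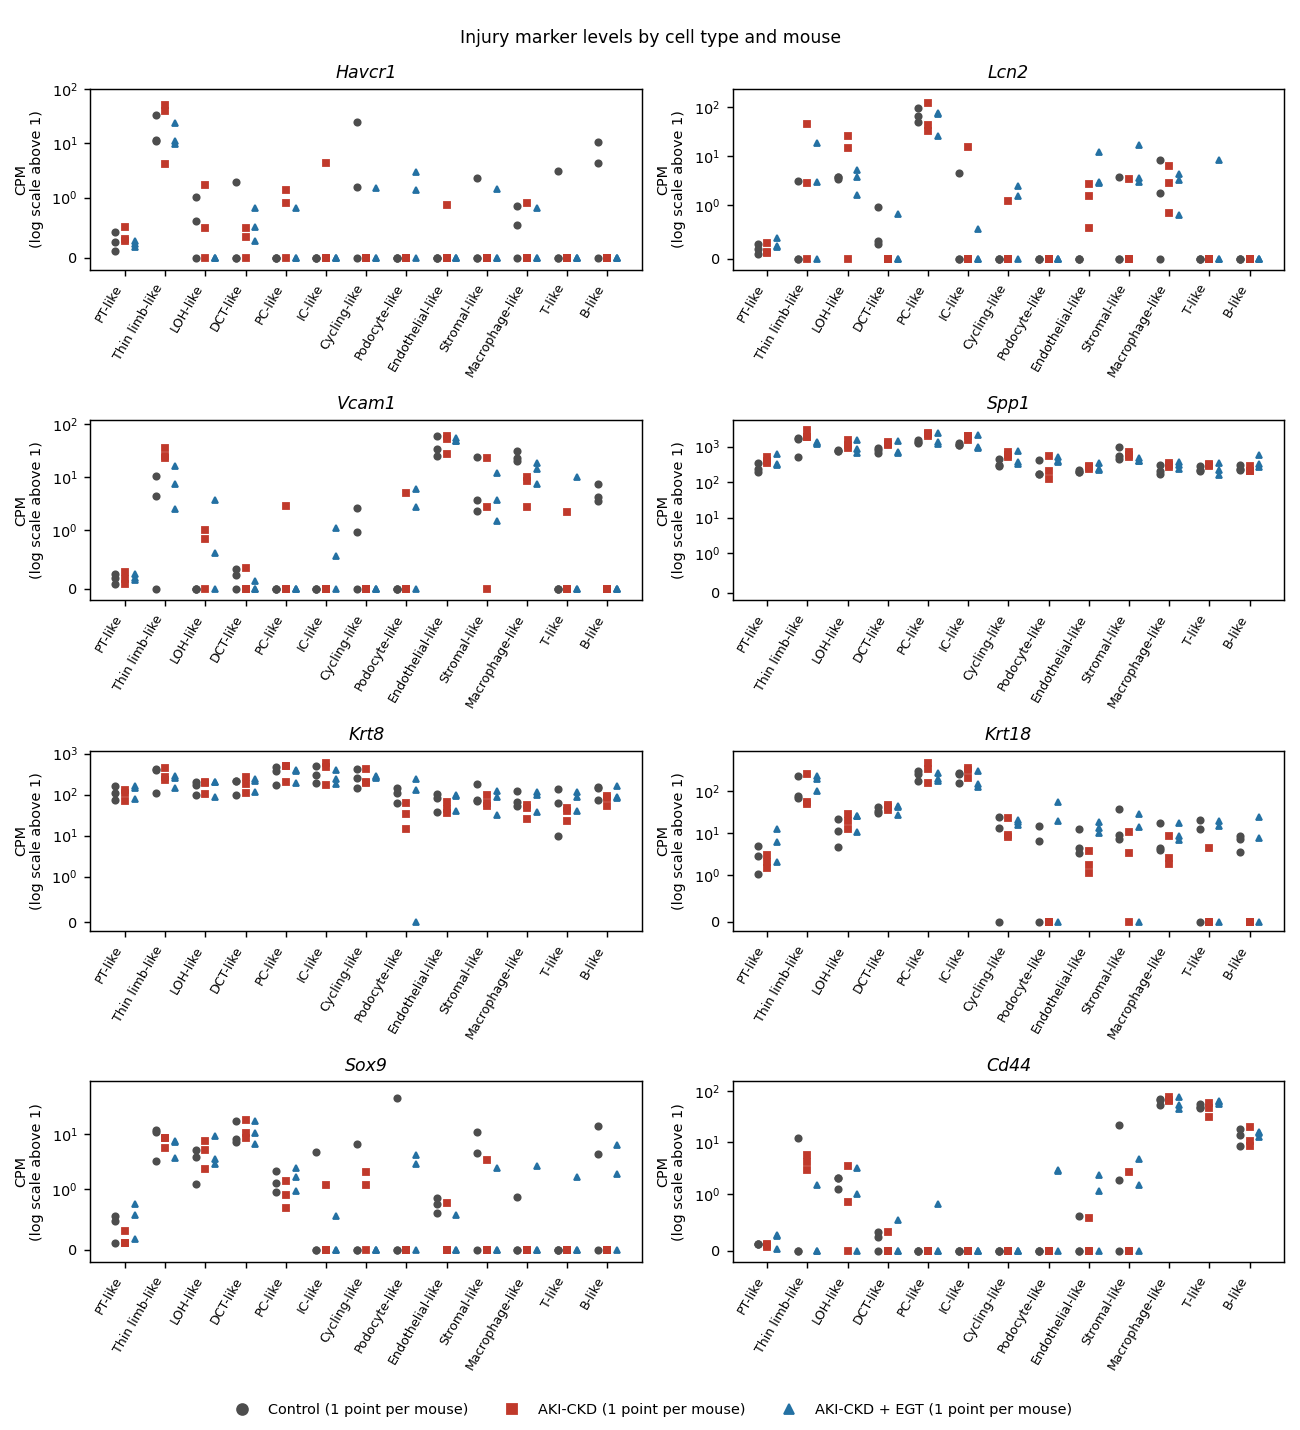
Level of each of the 8 genes (CPM, on an axis that is logarithmic above 1) in each of 13 cell types, with 1 point per mouse in the colour of its group. Spp1 and Krt8 are present in every type, whereas Lcn2 peaks in PC-like, Vcam1 in endothelial-like, Cd44 in macrophage-like and T-like, and Havcr1 in thin limb-like cells.

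Over 116 sums per mouse and cell type, the genes with the most similar pattern followed these classes. As a description across sums that share libraries and depth, Cd44 was closest to Selplg (Pearson's r = 0.92), Gpr65 (0.91) and Itgb2 (0.91), genes of leukocyte adhesion and signalling. Spp1 was closest to the tight junction gene Cldn3 (0.86), the kidney cadherin Cdh16 (0.82) and Cldn7 (0.81), and Krt18 to Cldn7 (0.88), Cldn4 (0.86) and Cldn8 (0.84). Krt8 was most like Gclc (0.77), which makes a subunit of the glutathione-producing ligase, Mgrn1 (0.76) and its partner Krt18 (0.73). Vcam1 was most like Acvrl1 (0.75), Pltp (0.74) and Pdgfb (0.74), of which Acvrl1 and Pdgfb are endothelial genes. Lcn2 was nearest to Kif26b (0.68), the water channel Aqp4 (0.68) and Frmpd4 (0.67), and Havcr1 to Serpina1f (0.71), Bst1 (0.65) and Lypd2 (0.63). Sox9 had no close match among the 8817 genes compared (Pantr1, 0.57).

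The first question of the design is whether the markers were still raised in AKI-CKD kidneys. No member was called at an adjusted p under 0.05 by edgeR's quasi-likelihood test on sums per mouse, either in all kept cells or in any of 12 cell types. DESeq2 called none either in all kept, PT-like, LOH-like and DCT-like cells. It was also run on macrophage-like and thin limb-like cells, where the members it called were not counted. The only member whose AKI-CKD mice lay above the Control mice in most types was Spp1. In PT-like cells, where 8 of 17869 genes (0.0448%) were called, Spp1 stood at 346, 227 and 198 CPM in Control mice 1, 2 and 3 and at 352, 513 and 395 in AKI-CKD mice. All AKI-CKD mice were above all Control mice, but Control mouse 1 was almost level with AKI-CKD mouse 1. The log2 fold change was 0.82 ± 0.31 (SE), with an adjusted p = 0.394 from edgeR, and 11.5% of all tested genes had AKI-CKD mice that were higher without overlap. In all kept cells the value was 0.74 ± 0.27 (SE, adjusted p = 0.560 from edgeR), with 0.0199% of 20144 genes called and 8.71% higher without overlap.

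The other members showed no difference of this kind in PT-like cells. Havcr1, the member most specific to injured proximal tubule, stood at 0.427, 0.111 and 0.267 CPM in Control and at 0.277, 0.318 and 0.517 in AKI-CKD mice, with a log2 fold change of 0.61 ± 0.48 (SE, adjusted p = 0.610 from edgeR). Control mouse 1 lay above 2 of the 3 AKI-CKD mice. Krt8 was at 158, 109 and 72.7 in Control and 71.6, 130 and 109 in AKI-CKD mice, so that both groups covered nearly the same range, and Krt18 was at 5.02, 2.89 and 1.07 against 1.46, 3.07 and 2.06. Their log2 fold changes were -0.02 ± 0.31 and -0.33 ± 0.59. Sox9 stood at 0.565, 0.481 and 0.107 in Control and 0.113, 0.318 and 0.120 in AKI-CKD mice, with a log2 fold change of -0.999 ± 0.67 (SE, adjusted p = 0.556 from edgeR). Lcn2 and Vcam1 had log2 fold changes of 0.05 ± 0.53 and 0.10 ± 0.57 at levels of at most 0.300 CPM in any of the 6 mice. Cd44 was below edgeR's filter in PT-like cells, at 0.0629 to 0.123 CPM in these mice. In all kept cells the 7 genes other than Spp1 had log2 fold changes between -0.42 (Sox9) and 0.55 (Lcn2), and their mice overlapped.

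The second question is whether EGT changed the markers in cisplatin-treated kidneys. In PT-like cells, where edgeR called 0 of 17869 genes (0%) in AKI-CKD + EGT against AKI-CKD, 2757 had an unadjusted p under 0.05 and DESeq2 called 436, no member passed with either tool. Spp1 stood at 635, 313 and 326 CPM in AKI-CKD + EGT mice 1, 2 and 3. Mouse 1 was the highest of all 9 animals and the other two lay below every AKI-CKD mouse, and the log2 fold change was -0.18 ± 0.31 (SE, adjusted p = 0.813 from edgeR). Without mouse 1 it was -0.68 ± 0.23 (SE, adjusted p = 0.138 from edgeR), and edgeR then called 131 genes, none of them a member. Havcr1 was at 0.178, 0.280 and 0.221, with a log2 fold change of -0.94 ± 0.50 (SE, adjusted p = 0.380 from edgeR). With library sizes scaled by TMM, the 3 mice were below the AKI-CKD mice, as in 11% of all tested genes, whereas in unscaled CPM AKI-CKD + EGT mouse 2 (0.280) was level with AKI-CKD mouse 1 (0.277). A total of 175 Havcr1 molecules in PT-like cells of 9 mice underlies these values. The median Havcr1 level over the mice was 0.277 CPM in PT-like cells and 0.278 CPM outside the tubule. The second value rests on very few molecules, 4 in B-like, 4 in macrophage-like, 1 in T-like and 1 in endothelial-like cells. It was 0 in AKI-CKD mice 1 and 2 and AKI-CKD + EGT mice 1 and 2, and 1.18 in Control mouse 2. Whether the 2 levels differ was not tested.

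Krt18 and Sox9 had the largest positive values of this comparison in PT-like cells, and AKI-CKD + EGT mouse 3 was the highest animal for both. Krt18 stood at 2.03, 6.28 and 12.7 CPM in AKI-CKD + EGT mice, with a log2 fold change of 1.39 ± 0.59 (SE, adjusted p = 0.304 from edgeR). Sox9 stood at 0.178, 0.578 and 0.761, with a log2 fold change of 1.22 ± 0.68 (SE, adjusted p = 0.405 from edgeR). For Krt18, the level outside the tubule was 43.5% to 469% of the PT-like level of the same mouse (median 210%). For Sox9 it was 0% to 795% (median 110%), from 8 UMIs in B-like, 5 in endothelial-like, 5 in macrophage-like and 1 in T-like cells. Outside the tubule, Krt18 reached 16.7 CPM at most. AKI-CKD + EGT mouse 3 also had the largest share of collecting duct cells (PC-like and IC-like), 7.58% of its kept cells. Over the 9 mice Krt18 in PT-like cells correlated with that share with r = 0.945 (exact permutation p = 0.00297, adjusted p = 0.00593 over 6 relations) and rho = 0.667 (exact permutation p = 0.0589, adjusted p = 0.0707). Without the 2 mice farthest from the median r was 0.382, so the pooled relation rests on those mice. Within groups r was 0.919, a value that still includes them. The 6 relations over mice given here and below were not among the planned tests. Their permutations ran over all 9 mice without regard to group, so their p-values are descriptive. Krt8 (76.5, 146 and 159 CPM), Lcn2 (0.214, 0.228 and 0.393), Vcam1 (0.178, 0.140 and 0.246) and Cd44 (0.0356, 0.263 and 0.270) overlapped with the AKI-CKD mice.

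AKI-CKD + EGT mice were also set against Control mice, a comparison that shares animals with the other 2. In PT-like cells edgeR called 0 of 17869 genes (0%), with 1316 at an unadjusted p under 0.05 and 101 called by DESeq2, and in all kept cells 1 of 20144 (0.00496%), which was not a member. The log2 fold changes of the members in PT-like cells lay between -0.33 ± 0.50 (SE) for Havcr1 and 1.05 ± 0.58 (SE, adjusted p = 0.739 from edgeR) for Krt18, with Spp1 at 0.64 ± 0.31 (SE, adjusted p = 0.704 from edgeR). In all kept cells, AKI-CKD + EGT against AKI-CKD had 1 called gene too (0.00496%), and the members lay between -0.99 ± 0.51 (SE) for Havcr1 and 0.73 ± 0.48 (SE) for Sox9.

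**Figure D2:**
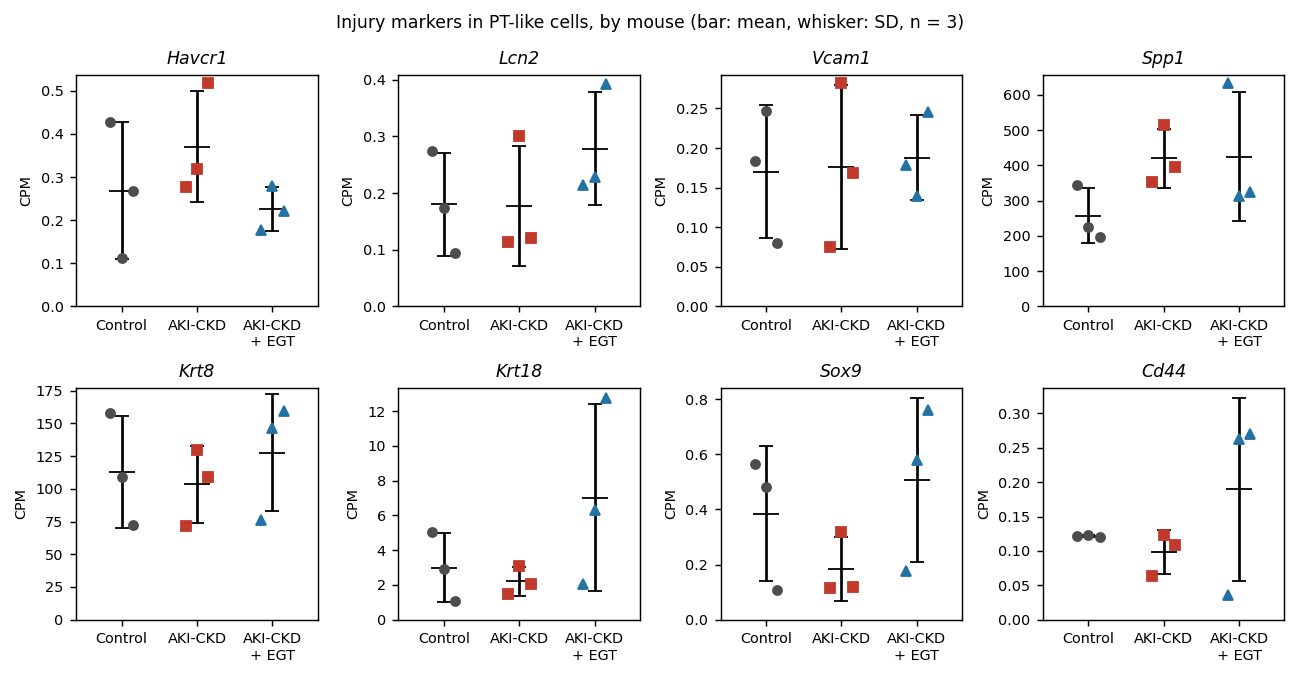
Level of each gene in PT-like cells (CPM) by group, with 1 point per mouse, the mean as a bar and the SD as a whisker (n = 3). The AKI-CKD mice lie above the Control mice for Spp1 only, and AKI-CKD + EGT mouse 3 is the highest animal for Krt18 and Sox9.

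**Figure D3:**
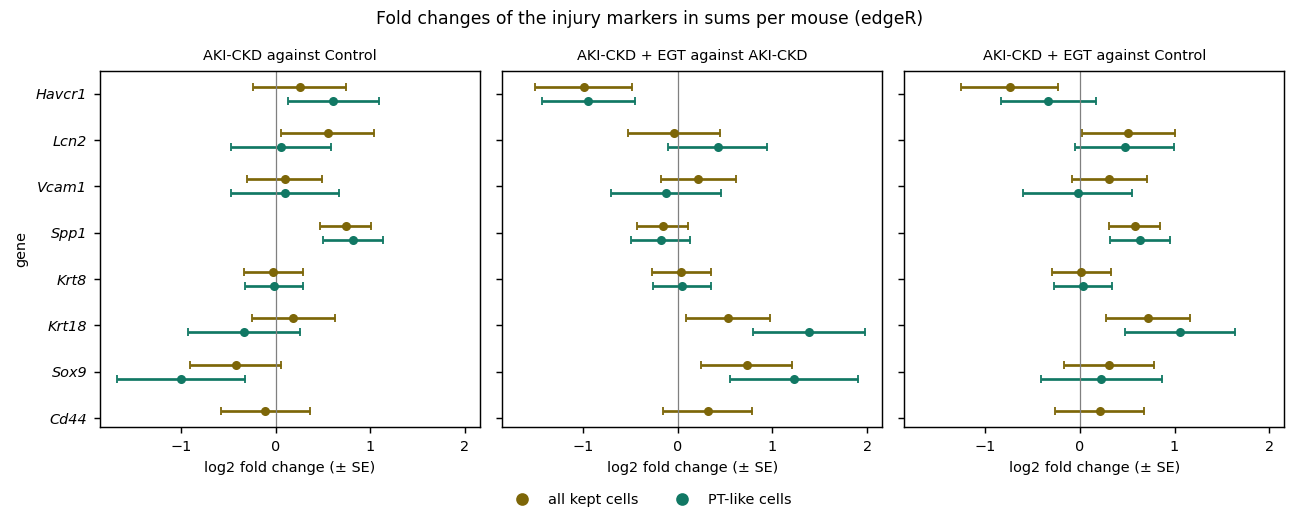
Log2 fold changes of the 8 genes by edgeR (points, with SE as bars) in all kept cells and in PT-like cells, in 1 panel for each of the 3 comparisons (Cd44 was not tested in PT-like cells). Spp1 lies at 0.74 and 0.82 in AKI-CKD against Control, Havcr1 at -0.99 and -0.94 when AKI-CKD + EGT is set against AKI-CKD, and no value passed the adjusted threshold.

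After thinning to 1000 UMIs, Spp1 was found in 25.2%, 19.0% and 17.1% of PT-like cells of Control mice, in 27.1%, 33.1% and 28.3% in AKI-CKD mice and in 37.3%, 23.7% and 26.2% in AKI-CKD + EGT mice. AKI-CKD mice exceeded Control mice by 9.09 percentage points (29.5% ± 3.20 against 20.4% ± 4.26, SD, n = 3, exact two-sided permutation p = 0.1, the smallest that 3 against 3 mice allow, adjusted p = 0.6 over 24 tests). The T-like share, which may hold Spp1 of the T cells themselves, lay between 13.2% and 18.1%. The mice were also without overlap (exact two-sided permutation p = 0.1, adjusted p = 0.6) for Krt18 (0.839% against 0.190%) and Sox9 (0.0609% against 0.0137%) in AKI-CKD + EGT against AKI-CKD, and for Cd44 (0.00832% against 0.0145%) in AKI-CKD against Control. In CPM the mice of these 3 comparisons overlapped. How many of all genes had shares without overlap was not counted, for Spp1 either. The nearest mice were close. For Krt18 and Sox9, AKI-CKD mouse 2 stood at 0.236% and 0.0230%, and AKI-CKD + EGT mouse 1 at 0.260% and 0.0240%. For Cd44, AKI-CKD mouse 2 stood at 0.0119% and Control mouse 2 at 0.0121%. Krt8 was found in 6.38% to 13.1% of PT-like cells of a mouse and Krt18 in 0.123% to 1.52%. The other 5 genes were found in at most 0.0877%, and none of the 24 tests over members and comparisons had an adjusted p below 0.6.

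Few PT-like cells carried more than 1 of the rarer markers. Among 152522 PT-like cells, 150178 had no UMI of Havcr1, Lcn2, Vcam1, Sox9, Cd44 or Krt18, 2319 had a UMI of 1 of these genes, 25 of 2, and 0 of 3 or more. The last count allows a share of up to 0.00197% of cells with UMIs of 3 of them at this depth, which sets no limit on the cells that express them. None of the 19 PT-like clusters held Havcr1 above 0.665 CPM, while their Spp1 levels ranged from 71.9 to 1158 and their Krt8 levels from 67.4 to 195. The 144 PT-like cells with a Havcr1 UMI had Spp1 at 1016 CPM against 357 in the others, although a Spp1 UMI was found in 49.3% of them against 47.2%. Their Krt8 stood at 87.2 against 111 and no Lcn2 UMI was found in them. They were deeper cells (median 4543.5 against 2889 UMIs). Since single molecules decide which cells are positive, these values describe the cells and were not tested.

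The log2 fold change of Spp1 in AKI-CKD against Control was above 0 in 10 of 12 cell types. With library sizes scaled by TMM, its AKI-CKD mice were higher without overlap in 9 of 12 types, where 8.73% of all gene tests in these types had that order, with log2 fold changes from -0.05 to 0.82 and a median of 0.62. The smallest adjusted p was 0.187 (edgeR, PC-like cells), and no type was called. The types of a mouse come from the same library, so the 9 types are not independent observations. For AKI-CKD + EGT against AKI-CKD its values lay between -0.88 and 0.61 with a median of -0.39, and the mice were lower without overlap in 2 types, thin limb-like and stromal-like (8.35% of all gene tests). In PC-like cells Spp1 stood at 1251, 1357 and 1494 CPM in Control, 1988, 2246 and 2401 in AKI-CKD and 2386, 1369 and 1207 in AKI-CKD + EGT mice. The AKI-CKD animals were well above the Control animals, and AKI-CKD + EGT mice 2 and 3 lay near the latter. In DCT-like cells the values were 663, 786 and 901, then 1152, 1348 and 1077, then 1449, 705 and 673. In LOH-like cells they were 729, 788 and 764, then 892, 1494 and 1135, then 1548, 836 and 676. AKI-CKD + EGT mouse 1 reached the range of the AKI-CKD mice or exceeded it in these 3 types, and mice 2 and 3 were below all AKI-CKD mice in them.

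With library sizes scaled by TMM, AKI-CKD mice lay above Control mice without overlap in T-like and endothelial-like cells too. They overlapped in macrophage-like cells (log2 fold change 0.54) and B-like cells (-0.0057). T-like levels in unscaled CPM were 278, 201 and 226 for Control, then 303, 330 and 277 for AKI-CKD. With EGT as well, they were 353, 215 and 162. In these unscaled values Control mouse 1 lay slightly above AKI-CKD mouse 3. Pooled over these classes, Spp1 was at 282 ± 27.6 CPM for AKI-CKD against 220 ± 40.1 for Control (SD, n = 3). These mice overlapped (exact permutation p = 0.2). In the pooled cells outside the tubule, the Spp1 level of a mouse followed that of its PT-like cells with r = 0.992 (exact permutation p = 5.51e-06, adjusted p = 3.31e-05 over 6 relations) and rho = 0.983 (exact permutation p = 4.96e-05, adjusted p = 0.000298). After leaving out the 2 mice farthest from the median r was 0.978, within groups it was 0.991, and both levels come from the same library. For Krt8 the same relation had r = 0.870 (exact permutation p = 0.00456, adjusted p = 0.00684) and rho = 0.900 (exact permutation p = 0.00203, adjusted p = 0.00406), with 0.746 without 2 mice and 0.917 within groups. The PT-like level minus the level outside the tubule was 36.3 ± 38.2 CPM for Control and 138 ± 55.9 for AKI-CKD (SD, n = 3). With EGT as well, it was 133 ± 105. The AKI-CKD mice lay above the Control mice in this remainder (exact permutation p = 0.1, the smallest possible). However, the remainder ranked the mice nearly as the PT-like level did. The subtraction therefore could not separate the group difference from RNA from outside the cell. The part of free RNA in the group difference of Spp1 was not tested.

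**Figure D4:**
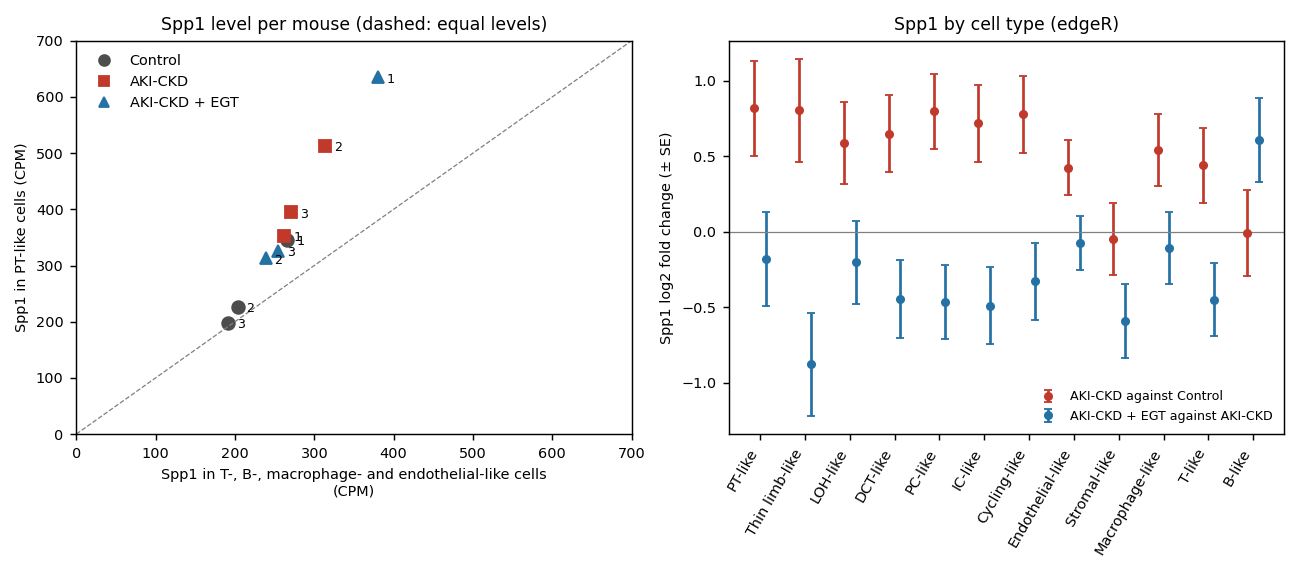
Left, Spp1 in PT-like cells (vertical axis) against Spp1 in T-like, B-like, macrophage-like and endothelial-like cells together (horizontal axis) of the same mouse, both in CPM, numbered by mouse with a dashed line of equal levels; right, log2 fold changes of Spp1 by cell type for 2 comparisons, with SE. Mice high in PT-like cells were high outside the tubule, AKI-CKD + EGT mouse 1 being highest in both, and the fold changes of AKI-CKD against Control lie between -0.05 and 0.82.

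The keratin pair moved together across mice. In PT-like cells Krt8 and Krt18 correlated with r = 0.781 (exact permutation p = 0.000303, adjusted p = 0.000909) and rho = 0.95 (exact permutation p = 0.000353, adjusted p = 0.00106) over the 9 mice, with 0.871 without the 2 farthest mice and 0.803 within groups. Krt18 in PT-like cells and outside the tubule had r = 0.737 (exact permutation p = 0.00996, adjusted p = 0.0120) and rho = 0.5 (exact permutation p = 0.178, adjusted p = 0.178), 0.690 without 2 mice and 0.607 within groups. Krt8 also ran with the mitochondrial share of a library (r = 0.758, exact permutation p = 0.0205, adjusted p = 0.0205, and rho = 0.7, exact permutation p = 0.0433, adjusted p = 0.0649), but less so without the 2 farthest mice (0.445) and with 0.760 within groups. The part of the mitochondrial share in the keratin levels was not tested.

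Outside PT-like cells, 0 of the members tested were called in the other 11 types in any comparison, where edgeR called 0.0722% of 88593 gene tests in AKI-CKD against Control, 0.458% in AKI-CKD + EGT against AKI-CKD and 0.0158% in AKI-CKD + EGT against Control. Over all 13 populations, 22 of 162 member tests had an unadjusted p under 0.05, against 9.43% of all gene tests, and the smallest adjusted p was 0.158. The smallest adjusted p belonged to Vcam1 in thin limb-like cells. It stood at 4.37, 10.6 and 0 CPM in Control, 23.0, 25.4 and 35.6 in AKI-CKD and 7.29, 16.2 and 2.43 in AKI-CKD + EGT mice. All AKI-CKD mice were above all mice of both other groups. The log2 fold changes were 2.54 ± 0.72 (SE, adjusted p = 0.158 from edgeR) against Control, where 8.19% of genes were higher without overlap, and -1.70 ± 0.68 (SE, adjusted p = 0.232 from edgeR) for AKI-CKD + EGT against AKI-CKD, where 9.31% were lower without overlap. These values rest on 62 Vcam1 molecules. Krt18 in endothelial-like cells, named after its values were seen, had a larger log2 fold change, 2.59 ± 0.58 for AKI-CKD + EGT against AKI-CKD (SE, adjusted p = 0.187 from edgeR). It stood at 4.58, 12.8 and 3.43 CPM in Control, 3.84, 1.15 and 1.76 in AKI-CKD and 10.2, 18.6 and 13.7 in AKI-CKD + EGT mice, where the last 3 lay above the AKI-CKD mice, as for 7.57% of genes. Krt18 is an epithelial gene, these values rest on 108 molecules, and the part of RNA from other cells was not tested.

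In macrophage-like cells, where Vcam1 marks some resident cells, it went the other way. Its level was 20.4, 22.5 and 30.8 CPM in Control, 8.45, 10.1 and 2.73 in AKI-CKD and 14.3, 18.4 and 7.36 in AKI-CKD + EGT mice. AKI-CKD mice lay below Control mice with a log2 fold change of -1.70 ± 0.47 (SE, adjusted p = 0.401 from edgeR), where 6.78% of genes were lower without overlap, and the AKI-CKD + EGT mice overlapped with the AKI-CKD mice. In LOH-like cells Lcn2, named here after its values were seen, stood at 3.44, 3.63 and 3.63 in Control, 0, 25.5 and 14.97 in AKI-CKD and 5.28, 3.69 and 1.62 in AKI-CKD + EGT mice. AKI-CKD mice 2 and 3 were far above the rest but AKI-CKD mouse 1 had no Lcn2 UMI in its 385 LOH-like cells, and the log2 fold changes were 1.94 ± 0.78 (SE, adjusted p = 0.599 from edgeR) and -2.20 ± 0.81 (SE, adjusted p = 0.415 from edgeR). In PC-like cells, which hold most Lcn2, levels were 96.2, 49.2 and 65.5 in Control, 33.4, 120 and 44.2 in AKI-CKD and 72.2, 76.5 and 25.2 in AKI-CKD + EGT mice, with no separation of the groups.

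The Havcr1-positive thin limb-like cells held more Havcr1 than PT-like ones. A Havcr1-positive thin limb-like cell had 4.5 UMIs on average and up to 21 (24 cells, 13 of them with 2 or more), against 1.22 on average and at most 5 in PT-like cells (144 cells, 21 with 2 or more). Cycling cells had 5.25 per positive cell, from 21 UMIs in 4 cells. The Havcr1 level in this class was 10.9, 33.3 and 11.4 CPM in Control, 40.3, 4.24 and 51.2 in AKI-CKD and 10.9, 23.6 and 9.73 in AKI-CKD + EGT mice. AKI-CKD mice 1 and 3 were the highest of all and AKI-CKD mouse 2 the lowest, with 1 molecule in 76 cells, so the groups overlapped. The level of Control mouse 2 came from 22 molecules in 2 cells, and that of AKI-CKD + EGT mouse 2 from 16 in 1 cell. AKI-CKD mice 1 and 3 had 14 molecules in 4 cells and 36 in 8. A UMI of Havcr1 or Vcam1 was found in 3.68%, 1.49% and 1.12% of thin limb-like cells of Control mice, in 9.80%, 6.58% and 6.70% of those of AKI-CKD mice and in 4.55%, 1.96% and 1.57% of those of the mice given EGT as well. Pooled by group this was 10 of 515, 28 of 372 and 10 of 419 cells, or 1.94% (exact 95% binomial interval 0.935% to 3.54%), 7.53% (5.06% to 10.7%) and 2.39% (1.15% to 4.35%), where the intervals cover counting error only and cells of a mouse are not replicates. Each AKI-CKD mouse (6.58% to 9.80%) was above each mouse of the other groups (1.12% to 4.55%), while the median depth of these cells was 2354 to 2516 UMIs in Control, 2193 to 2775.5 in AKI-CKD and 2095 to 2561 in AKI-CKD + EGT mice. The pooling of both genes was chosen after their values were seen, so no test is given.

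UMIs of Havcr1 and of Vcam1 were mostly found in different thin limb-like cells, with 3 cells that had both, against 24 with Havcr1 and 27 with Vcam1. Still, a Vcam1 UMI was found in 12.5% of the Havcr1-positive cells, against 2.07% of all cells of the class. A cell without a UMI may express the gene at this depth, so whether the kinds are separate was not tested. Compared with the 1258 cells that had neither, the Havcr1-positive cells had Spp1 at 5269 against 1336 CPM and Sox9 at 23.0 (3 UMIs in 2 cells) against 4.86. They had less Krt8 (161 against 265) and Krt18 (7.66, from 1 UMI, against 143). The 24 cells with Vcam1 alone had Spp1 at 2303, Sox9 at 74.1 and Krt8 at 970, with Krt18 at 156. The Havcr1-positive and Vcam1-positive cells were deeper than the rest, with medians of 3501 and 4483 against 2337.5 UMIs, and the shares of cells given next were not thinned. The 7 marker genes of the class were all lower in CPM in both kinds than in the rest. The small heat shock gene Cryab was at 2696 and 1755 against 3862 CPM and was found in 95.8% and 100% of the cells against 84.3%. The water channel gene Aqp1 was at 766 and 200 against 2786 CPM and was found in 66.7% and 54.2% against 61.9%. Bst1 was at 15.3 and 14.8 against 329 CPM, with 1 positive cell in each kind, and the zinc transporter gene Slc39a8 at 45.9 and 0 against 89.7. Cldn4 and Corin were at 0 in both kinds, against 47.9 and 32.8. Some genes outside this list were lower too, and some of them fell more than some markers of the class. The proximal tubule gene Kap was at 58015 and 39687 against 92078 CPM, a larger fall than that of Cryab in both kinds. The proximal tubule genes Slc34a1 (1424 and 1592 against 2121) and Lrp2 (521 and 378 against 628) fell less than Bst1 and Aqp1 did. The epithelial gene Epcam (30.6 and 88.9 against 318) fell more than these proximal tubule genes, while Cdh16 was at 352 and 815 against 668. Slc14a2, a urea transporter of the thin descending limb, was at 0 and 96.3 against 472 CPM, but only 138 of the 1258 other cells had a UMI of it and the 96.3 came from 1 cell. The complement gene C3 was at 505 and 1814 against 79.0, the copper carrier gene Cp at 498 and 474 against 176, and the junction gene Cldn1 at 76.6 and 141 against 9.23. The chemokine gene Cxcl10 was at 99.6 and 711 against 45.2 and Ccl2 at 53.6 and 274 against 0.729, each found in 2 Havcr1-positive cells. Not all genes counted were higher in both kinds. S100a6 was at 4066 (from 4 cells) and 29.6 against 344, Vim at 161 and 0 against 3.40, and Krt19 at 0 in both kinds against 10.4. Cd74, a gene of antigen presentation that leukocytes express strongly, was at 345 and 763 against 111 and was found in 41.7% and 66.7% of the cells against 9.54%, and the myeloid gene Lyz2 was at 7.66 and 0 against 7.05. No UMI of Ptprc, Pecam1, Kdr or Col1a1, genes of leukocytes, endothelium and fibroblasts, was found in either kind, but with at most 1.21 CPM in the other cells these genes are too low for a 0 in 24 cells to tell the kinds apart. These genes were chosen after values were seen, the cells are few, and whether these cells belong to the thin limb was not tested.

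**Figure D5:**
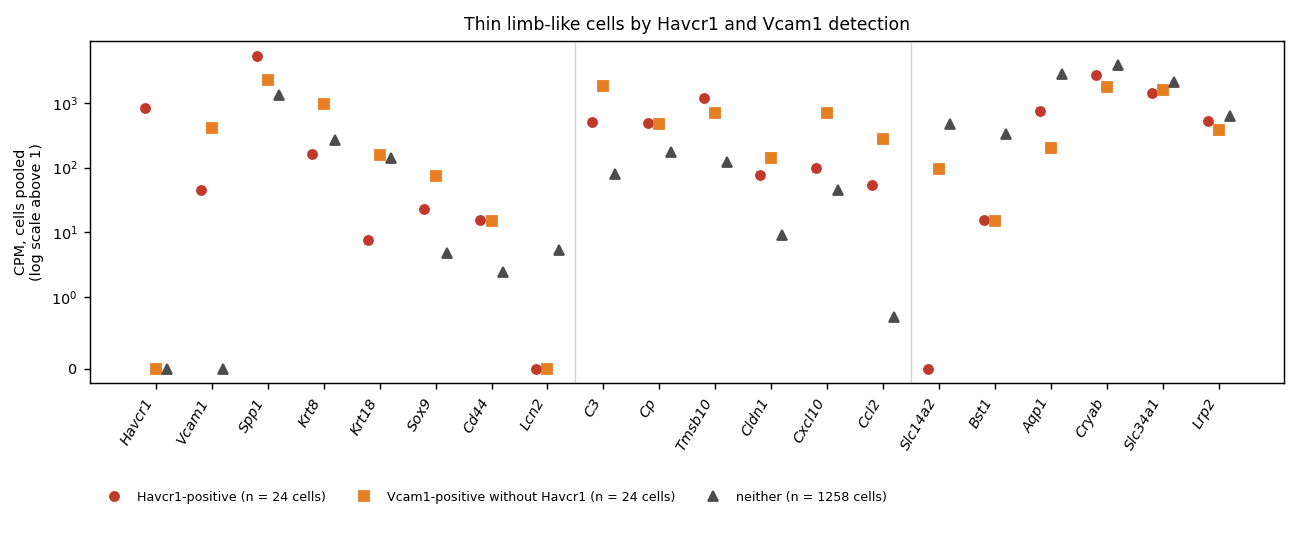
Levels of the 8 members and selected other genes (CPM, cells pooled over mice, on an axis that is logarithmic above 1) in thin limb-like cells that are Havcr1-positive (24 cells), Vcam1-positive without Havcr1 (24 cells) or neither (1258 cells). Slc14a2 stands at 472 CPM in cells with neither gene and at 0 in Havcr1-positive cells, and Spp1 is 5269 in the latter.

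Other genes of the injury programme were counted in PT-like cells through lists, whose medians stand beside a median over all 17869 genes of -0.013 in AKI-CKD against Control. Of 13 tested keratin and cytoskeleton genes 0 were called, with a median log2 fold change of -0.11, and 5 were above 0. With EGT, set against AKI-CKD, the same list had a median of 0.69 beside -0.0089 for all genes, with 11 of the 13 above 0 and 0 called. AKI-CKD + EGT mouse 3 had the largest shares of collecting duct cells (7.58%) and mitochondrial UMIs (6.39%) of the 9 mice, and their part in this median was not tested. Of 13 secreted injury proteins 0 were called (median -0.15), with Gdf15, a stress-induced cytokine, at 1.19 ± 0.48 (SE, adjusted p = 0.411 from edgeR). Of 12 chemokines and cytokines 0 were called (median 0.26), and Il34, a ligand of the macrophage receptor Csf1r, had -1.03 ± 0.18 (SE, adjusted p = 0.136 from edgeR) and 0.82 ± 0.18 (SE, adjusted p = 0.213 from edgeR) in AKI-CKD + EGT against AKI-CKD. Of 16 surface and adhesion genes 0 were called (median -0.22), with Prom1, which encodes the progenitor marker CD133, at 0.90 ± 0.20 (SE, adjusted p = 0.238 from edgeR). Of 13 binding partners of the members 0 were called (median 0.12), with the integrin gene Itgb5 at 0.29 ± 0.11. The 20 transport and other genes of differentiated proximal tubule had a median of 0.05 with 0 called, from Slc7a13 at -0.93 ± 0.44 to Slc22a8 at 0.44 ± 0.23. The 18 dissociation response genes had a median of 0.15 with 0 called, and with EGT Hspa1b, a heat shock gene of that list, was at -1.63 ± 0.60 (SE, adjusted p = 0.262 from edgeR).

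The called genes lay elsewhere. Among 15 transcription factors and cell cycle genes, with a median of -0.15, 1 was called: Cdkn1a, the p53-induced brake on the cell cycle. It stood at 9.08, 9.25 and 3.95 CPM (scaled by TMM) in Control, 47.0, 124 and 89.8 in AKI-CKD and 42.7, 16.2 and 28.1 in AKI-CKD + EGT mice, a log2 fold change of 3.55 ± 0.46 (SE, adjusted p = 0.0332 from edgeR) against Control. The 13 p53 target genes, a list known from earlier results of these data, were all above 0 with a median of 0.96, 10 of them without overlap (11.5% of all genes), and 4 rose: Cdkn1a, Ephx1 (3.17 ± 0.28, adjusted p = 0.00424 from edgeR), Phlda3 (3.25 ± 0.35, adjusted p = 0.0125) and Eda2r (3.28 ± 0.46, adjusted p = 0.0480). In AKI-CKD + EGT against AKI-CKD all 13 were below 0 with a median of -0.69 and 0 were called, and the mice were lower without overlap for 9 of them, against 11% of all genes. Since the list was chosen with these data known and both comparisons share the AKI-CKD mice, these counts describe the list and are no test of it. The number of genes called against Control in PT-like cells, 8, fell to 0 without Control mouse 2, 2 without Control mouse 3, 5, 4 and 1 without AKI-CKD mice 1, 2 and 3, 1 when only the 6 mice compared were fitted and 0 with the replicate number as a block. Havcr1 stayed below 0.518 CPM in the PT-like cells of every one of these mice.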

How the data were processed

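Single-cell RNA-seq libraries of kidney tissue from 9 mice were analysed. The deposited matrices, 1 per animal, hold whole-number UMI counts by gene and barcode that per the file headers were written by PISA 1.0, with no scaling and no pooling. The submitters' processing notes name GRCm39. The aligner, the annotation and the way cells were called are not given in the sources used here. No deposited barcode has fewer than 1000 UMIs. Barcode names are serial numbers, so shared cells could not be judged from them. Groups and replicate numbers come from the labels, each replicate being a separate mouse, and no sample was left out.

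Barcodes were kept from 1000 UMIs and 500 genes upwards if mitochondrial UMIs did not exceed 15% (Python 3.11.15, NumPy 2.4.6, SciPy 1.17.1, scanpy 1.11.5, scikit-learn 1.9.0, igraph 0.11.9). The 8 genes, the lists of further genes, mitochondrial and ribosomal genes could not be among the 2000 variable genes unless they are cell type markers, library effects in 30 principal components were removed by a reimplementation of Harmony, and Leiden clustering used 20 neighbours and a resolution of 2, which was chosen after the clusters were seen. A cluster was named from marker lists with at least 3 markers 2-fold higher than elsewhere, by a rule completed after the clusters were seen, and populations may differ from those of the study, which names the same limits on barcodes but a smaller number of cells, a gap whose cause was not tested. Scrublet's own calls could not be used, so doublets were treated only as an alternative.

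UMIs of each type were added up within a mouse (at least 20 cells in each mouse, which left out podocyte-like cells) and tested with edgeR 4.0.16 in R 4.3.3 (TMM, filterByExpr, quasi-likelihood F test, 9 mice in 1 fit, 3 comparisons, Benjamini-Hochberg adjustment over all genes of a population, called at an adjusted p under 0.05). On simulated PT-like sums with 200 changed genes among 17869, edgeR recovered 105 at a log2 fold of 1 and 149 at 2, with 10 and 11 false calls. Whether groups overlap was judged on CPM scaled by TMM, levels are unscaled CPM (per 1000000 UMIs), and shares of cells were thinned to 1000 UMIs and compared by exact two-sided permutation of 6 mice, where p cannot go below 0.1. Intervals and floors cover counting error only. Fewer cells of a type and less RNA per cell can be told apart only as far as the cell names go.

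The members and all lists were chosen with earlier results of these data known. All 8 members are named. In types other than PT-like cells fold changes were to be given for members with an absolute log2 fold change of at least 1, no overlap between mice and an average log2 CPM of at least 4 (Spp1 in 12 types, Lcn2 in LOH-like and Krt18 in endothelial-like cells were added after values were seen), for further lists the genes with the largest positive and negative values were eligible, and other genes are marked as chosen after values were seen. Likeness used log2(CPM + 1) over sums of at least 20 cells. Alternatives were DESeq2 1.42.0, no filter on low counts, other library sizes, only the mice compared, a replicate block, each mouse left out, other mitochondrial limits, removal of the 6% highest Scrublet scores, other clusterings and, added after seeing the data, the haemoglobin-led cluster counted as PT-like.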

Additional observations from a re-analysis of the deposited data

How the results depend on the processing

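No member was called by edgeR's quasi-likelihood test in the 162 tests, and this count stayed at 0 under every alternative run in all kept and PT-like cells. In LOH-like cells it became 1 without a filter on low counts, both against Control for AKI-CKD mice and against AKI-CKD for mice given EGT (Lcn2, adjusted p = 0.0244 and 0.00490 from edgeR). Without a filter, Vcam1 also passed in thin limb-like cells (adjusted p = 0.00333) and macrophage-like cells (adjusted p = 0.0180) in AKI-CKD against Control. In DCT-like cells, leaving out each mouse gave 0 to 1 for AKI-CKD + EGT against AKI-CKD, with the call being Spp1 without AKI-CKD + EGT mouse 1 (-0.90 ± 0.17, adjusted p = 0.0452 from edgeR).

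Counts of genes called moved much more. Over the alternatives in all kept and PT-like cells, 42 counts stayed about the same, 17 were higher and 31 lower. In all kept cells the 3 comparisons had 4, 1 and 1 called genes, against 112, 217 and 103 by DESeq2 and 29, 5 and 17 without a filter. In PT-like cells they had 8, 0 and 0, against 204, 436 and 101 by DESeq2 and 100, 220 and 55 without a filter. Without AKI-CKD + EGT mouse 1, 131 genes were called in PT-like cells in AKI-CKD + EGT against AKI-CKD, and without Control mouse 1, 11 in all kept cells in AKI-CKD against Control. The causes were not tested. With the replicate number as a block, 0 genes were called in every comparison in both populations. Same-numbered mice correlated between -0.443 and 0.429 in their deviations from the group means and 2 of 9 mice correlated best with their own number, so the numbers gave no pairing.

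Values near 0 changed sign under some settings, none of them past the threshold on either side. Log2 fold changes of Krt8 became -0.00068 (DESeq2, AKI-CKD + EGT against Control, all kept cells), -0.0068 (no filter on low counts, AKI-CKD + EGT against Control, all kept cells), -0.035 (replicate block, AKI-CKD + EGT against Control, all kept cells), 0.0020 (clusters without Harmony, AKI-CKD against Control, PT-like cells), -0.016 (replicate block, AKI-CKD + EGT against Control, PT-like cells). Those of Lcn2 in AKI-CKD + EGT against AKI-CKD in all kept cells became 0.064 with the replicate block, 0.11 without the highest Scrublet scores and 0.0017 without a mitochondrial limit. Those of Vcam1 in PT-like cells became -0.061 (highest Scrublet scores left out) and -0.16 (no gene kept out of the variable genes) in AKI-CKD against Control, 0.83 (no gene kept out) in AKI-CKD + EGT against AKI-CKD, and 0.071 (replicate block), 0.061 (no Harmony), 0.67 (no gene kept out) and 0.050 (haemoglobin-led cluster as PT-like) in AKI-CKD + EGT against Control. Differences in the share of PT-like cells, in percentage points, became -0.00185 (Lcn2, AKI-CKD against Control, at least 2 UMIs per cell), 0 (Lcn2, AKI-CKD + EGT against AKI-CKD, at least 2 UMIs per cell), -0.00185 (Lcn2, AKI-CKD + EGT against Control, at least 2 UMIs per cell), 0.00958 (Vcam1, AKI-CKD against Control, all UMIs of each cell), 1.26 (Spp1, AKI-CKD + EGT against AKI-CKD, all UMIs of each cell), -0.00185 (Cd44, AKI-CKD + EGT against Control, at most 10% mitochondrial UMIs).

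With each mouse left out in turn, log2 fold changes in all kept cells changed sign and ranged in AKI-CKD + EGT against AKI-CKD Spp1 from -0.57 to 0.013, Krt8 from -0.19 to 0.26, Lcn2 from -0.39 to 0.79, Vcam1 from -0.098 to 0.53, Cd44 from -0.18 to 0.68, in AKI-CKD against Control Krt8 from -0.27 to 0.21, Krt18 from -0.24 to 0.41, Havcr1 from -0.39 to 0.66, Lcn2 from -0.28 to 0.97, Vcam1 from -0.22 to 0.49, Cd44 from -0.47 to 0.27, in AKI-CKD + EGT against Control Krt8 from -0.23 to 0.24, Sox9 from -0.0037 to 0.72, Cd44 from -0.29 to 0.49. Those in PT-like cells changed sign and ranged in AKI-CKD + EGT against AKI-CKD Spp1 from -0.68 to 0.044, Krt8 from -0.18 to 0.27, Vcam1 from -0.51 to 0.33, in AKI-CKD against Control Krt8 from -0.24 to 0.23, Krt18 from -0.72 to 0.17, Lcn2 from -0.49 to 0.40, Vcam1 from -0.36 to 0.55, in AKI-CKD + EGT against Control Krt8 from -0.20 to 0.28, Havcr1 from -0.69 to 0.096, Vcam1 from -0.36 to 0.42, Sox9 from -0.22 to 0.61. Those in LOH-like cells changed sign and ranged in AKI-CKD + EGT against AKI-CKD Spp1 from -0.62 to 0.033, in AKI-CKD + EGT against Control Spp1 from -0.050 to 0.61, Lcn2 from -0.58 to 0.24. Those in DCT-like cells changed sign and ranged in AKI-CKD + EGT against Control Spp1 from -0.25 to 0.39. The shares, in percentage points, ranged in AKI-CKD against Control Lcn2 from -0.00907 to 0.00842, Vcam1 from -0.00851 to 0.00347, in AKI-CKD + EGT against AKI-CKD Vcam1 from -0.00196 to 0.00946, Spp1 from -4.52 to 2.28, in AKI-CKD + EGT against Control Vcam1 from -0.00494 to 0.00739, Cd44 from -0.0013 to 0.00997.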
